A study of Mus musculus with 4 samples.

Results

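CD30high Th17 cells were compared with CD30high Th1 cells, the question being how far these helper T cell lineages differ among cells sorted for a high surface level of CD30. CD30 is a receptor of the TNF receptor superfamily and is encoded by Tnfrsf8. The members were the 2 arrays of the series labelled as effector CD30high Th1 and effector CD30high Th17, of 4 arrays in all, chosen by their labels and not by any measured value. The other 2 arrays held the CD30low Th1 and CD30low Th17 cells of the same kinds of culture, and they are used below only to place the CD30high difference beside a second pair of arrays. Each group was a single array, so no value has a replicate error and no p-value is given.

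The cells were CD4 T cells of the mouse spleen, grown for 6 days and then sorted by CD30. Th1 cultures received IL-2 at 30 U/ml, IL-12 at 100 U/ml and an antibody to IL-4 at 1 µg/ml. Th17 cultures received IL-6, IL-1beta and IL-23 at 10 ng/ml each, with antibodies to IL-4 and IFN-gamma at 10 µg/ml each. By the methods, naive cells carried a transgenic receptor for an ovalbumin peptide and were stimulated with that peptide on irradiated splenocytes depleted of T cells. Both the DO11.10 line on BALB/c and the OTII line on C57BL/6 were in use, and which of them gave the arrayed cells is not given in the sources used here. The methods start from cells high in the homing receptor CD62L, whereas the sample labels couple high CD62L with CD30high and low CD62L with CD30low. CD30 and CD62L can therefore not be told apart in the labels. The antibody to IFN-gamma and IL-2 were each in 1 kind of culture only, so lineage and culture additions cannot be told apart either.

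Y-linked genes differed between the cultures. Eif2s3y had a signal of 1640.0 in CD30high Th1 and 9.39 in CD30high Th17 cells. Kdm5d had 341 against 3.98, and Uty 309.6 against 2.31. The CD30low arrays had the same difference, with Eif2s3y at 1784 in Th1 and 1.41 in Th17 cells. The X-linked Xist was bright in both lineages, at 16222 and 22613. Both Th1 arrays thus held bright Y-linked genes together with bright Xist, which was 14620 in CD30low Th1 cells. On the Th17 arrays Xist was bright and the Y-linked genes were not. Why the Th1 material held both kinds of transcript was not tested. The sex make-up of the material and the lineage of the cells can therefore not be told apart on these arrays. Genes on X and Y were left out of everything that follows.

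Th1 cells are the helper T cells that make IFN-gamma under the control of the transcription factor T-bet (Tbx21), after IL-12 has acted through STAT4. Th17 cells arise under IL-6 and IL-23, which act through STAT3, use nuclear receptors such as RORalpha, and make cytokines of the IL-17 family. Th1 cells are known for activating macrophages, and Th17 cells for recruiting neutrophils and acting on epithelium. Either lineage can carry CD30 after activation.

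Among the genes that separated the CD30high populations most widely were the signature cytokines Il17a and Ifng and the IL-6 family cytokine Lif. Their promoters are given here because these genes stand at the far ends of the comparison. Each sequence runs 5′ to 3′ on the plus strand, from 250 bases before the transcription start to 50 bases after it, as RefSeq annotates it on GRCm38.p6. Il17a lies on chromosome 1, with the window at chr1:20730655-20730954. Lif lies on chromosome 11, with the window at chr11:4257318-4257617. Ifng lies on chromosome 10, with the window at chr10:118440796-118441095. Capitals mark matches to the motifs described at the end of the report.
Il17a promoter: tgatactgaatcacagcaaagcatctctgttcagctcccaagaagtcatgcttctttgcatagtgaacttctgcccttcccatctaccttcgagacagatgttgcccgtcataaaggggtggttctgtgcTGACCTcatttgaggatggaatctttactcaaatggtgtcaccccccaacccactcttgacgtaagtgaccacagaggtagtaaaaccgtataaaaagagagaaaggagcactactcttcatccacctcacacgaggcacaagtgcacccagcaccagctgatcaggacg
Lif promoter: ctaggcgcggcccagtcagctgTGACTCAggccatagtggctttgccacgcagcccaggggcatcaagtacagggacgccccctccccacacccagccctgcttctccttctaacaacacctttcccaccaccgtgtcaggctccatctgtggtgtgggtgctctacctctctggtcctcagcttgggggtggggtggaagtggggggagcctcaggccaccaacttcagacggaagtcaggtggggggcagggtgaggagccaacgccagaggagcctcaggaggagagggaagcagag
Ifng promoter: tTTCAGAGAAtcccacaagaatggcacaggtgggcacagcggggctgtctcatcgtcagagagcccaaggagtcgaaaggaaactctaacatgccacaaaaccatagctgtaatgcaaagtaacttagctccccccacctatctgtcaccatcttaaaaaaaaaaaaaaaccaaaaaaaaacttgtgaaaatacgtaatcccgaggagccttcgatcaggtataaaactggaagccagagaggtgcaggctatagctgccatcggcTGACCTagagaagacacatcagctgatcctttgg
In the Il17a window the capitals are a match, on the reverse strand, to the nuclear receptor site AGGTCA, the kind of element that ROR proteins bind. In the Lif window they are a reverse match to the AP-1 site TGAGTCA. The Ifng window has a match to the STAT site TTCNNNGAA and a reverse match to AGGTCA. A match describes the letters of the window and is not a measured binding site.

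Expression was read as the signal of a probe set, a linear intensity in arbitrary units that the authors scaled to a common mean. Signals below 100 were set to 100, and log2 ratios were taken of Th17 over Th1. A gene was called higher or lower when its signals differed by at least 2-fold and the brighter array reached 300. Of 17404 autosomal genes, 7714 reached 300 on either CD30high array. In Th17 cells 379 of them were higher, which is 4.91% of the genes compared, and 525 were lower, which is 6.81%. The median log2 ratio over all genes compared was 0.04. These shares and this median are the background for every list count and list median of the CD30high pair given below. Most genes differed little, with 5533 (71.7%) within 1.5-fold of equality. By the same rule, 263 of 7600 genes (3.46%) were higher and 443 (5.83%) lower in Th17 cells between the CD30low arrays, which are not part of the CD30high pair. At 4-fold or more, 77 genes were higher and 142 lower. At 16-fold or more, 10 were higher and 17 lower. The Th1 signal lay below 100 for 40 of the higher genes and the Th17 signal for 65 of the lower genes, so these folds are lower bounds and are written with "at least".

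**Figure D1:**
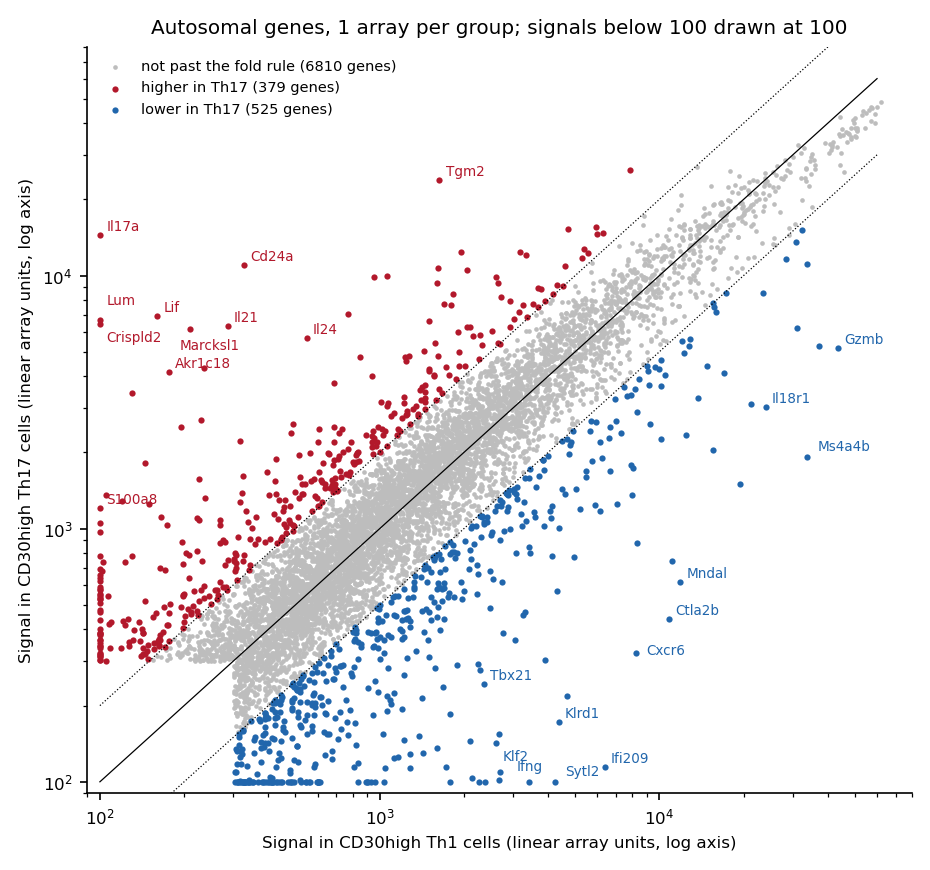
Signals of the 7714 autosomal genes compared, CD30high Th1 on the x axis and CD30high Th17 on the y axis, both in linear array units on log axes, with 1 point per gene and 1 array per group. The solid line marks equal signals and the dotted lines 2-fold differences; 379 genes lie above the upper dotted line and 525 below the lower one, with Il17a at the upper left and Ifng at the lower right.

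The lower genes outnumbered the higher ones at every level of brightness. Among genes at 300 to 1000 in the brighter array, 4.69% were higher and 7.76% lower. At 1000 to 3000 the shares were 4.94% and 5.99%. They were close at 3000 to 10000, with 5.61% and 5.96%. Among genes at 10000 or more the shares were 4.05% and 7.62%. Over all probe sets the median signal was 86.0 on the CD30high Th1 array and 64.3 on the CD30high Th17 array, a difference among dim probe sets that scaling to a common mean leaves in place. Whether it contributed to the excess of lower genes was not tested.

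The genes highest in CD30high Th17 cells over CD30high Th1 cells were led by Il17a, the cytokine that gives the lineage its name. Its signal was 49.4 in CD30high Th1 and 14443 in CD30high Th17 cells, at least 144-fold higher in Th17. On the CD30low arrays it was 37.7 in Th1 and 1398 in Th17 cells. Both Th17 arrays were thus bright and both Th1 arrays below 100, and the CD30high Th17 array was the brighter of the Th17 pair. Lif, a cytokine of the IL-6 family, had 161 against 6914 among CD30high cells and 64.6 against 1951 among CD30low cells, 43.1-fold higher in CD30high Th17 cells. Il21, a cytokine that acts on B cells and sustains Th17 cells, had 286 against 6316 and 105 against 3174, 22.1-fold higher in CD30high Th17 cells. Il24, a cytokine of the IL-10 family, had 548 against 5672, 10.3-fold higher. All 3 of these cytokines were brighter on each Th17 array than on either Th1 array.

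Several of the other leading genes encode secreted or matrix-associated proteins. Lum (lumican, a small leucine-rich proteoglycan of connective tissue) had a signal of 63.3 in CD30high Th1 and 6697 in CD30high Th17 cells, at least 67-fold higher. Crispld2, which encodes a secreted cysteine-rich protein, had 42.4 and 6452, at least 64.5-fold higher. Tgm2 encodes transglutaminase 2, an enzyme that cross-links proteins. Its signals were 1635 in CD30high Th1 and 23867 in CD30high Th17 cells, 14.6-fold higher, and 420.4 and 11421 in the CD30low cells. The order of the 4 arrays was the same for Tgm2 as for Lif and Il21, with CD30high Th17 brightest and CD30low Th1 dimmest. Inhba, the subunit of activin A, went from 99.2 to 1055, at least 10.6-fold higher. Cpd, a membrane-bound carboxypeptidase, went from 235 to 4300.0, 18.3-fold higher.

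Surface and cytoskeletal proteins were the next group. Cd24a, a lipid-anchored surface glycoprotein, had 329 in CD30high Th1 and 11007 in CD30high Th17 cells, 33.5-fold higher. Procr, the receptor of protein C, had 951 and 9902, 10.4-fold higher, whereas the CD30low arrays held 394 and 784. Marcksl1, an actin-regulating substrate of protein kinase C, was 29.2-fold higher (211 against 6157). Dab2, an endocytic adaptor, was 26.5-fold higher (130.1 against 3444). Gap43, a growth-associated protein known from neurons, was 11.7-fold higher (229.8 against 2678). Mylk, the myosin light chain kinase, had 105 and 1355 in CD30high Th1 and Th17 cells but stayed below 100 on both CD30low arrays. Its brightness on 1 array of the 4 set it apart from Il17a or Lif.

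Enzymes and an early transcription factor completed the 20 highest ratios. Akr1c18, a hydroxysteroid dehydrogenase that inactivates progesterone, had 176 in CD30high Th1 and 4144 in CD30high Th17 cells, 23.6-fold higher. It was brighter still in CD30low Th17 cells, at 22633. Upp1, a uridine phosphorylase, was 12.9-fold higher, with 195 and 2522. Ido1, which starts the breakdown of tryptophan, was 12.5-fold higher, with 145 and 1821. S100a8, a calcium-binding protein known from neutrophils, had 7.51 and 1209.9, at least 12.1-fold higher. Egr1, an immediate early transcription factor induced by antigen receptor and growth factor signals, had 119.8 and 1287, 10.8-fold higher. S100a8, Egr1 and Akr1c18 were all brighter on the CD30low than on the CD30high Th17 array, the reverse of Il17a and Lum.

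The genes lowest in CD30high Th17 cells began with interferon-inducible and cytotoxic genes. Ifi209, of the HIN-200 family of DNA-binding proteins, had 6379 in CD30high Th1 and 115 in CD30high Th17 cells, 55.7-fold lower. Mndal, of the same family, had 11879.8 and 614, 19.4-fold lower. Ifng, the signature cytokine of Th1 cells, had 3423 and 76, at least 34.2-fold lower, and on the CD30low arrays 2506 and 106. Both Th1 arrays were bright for Ifng and both Th17 arrays were near 100. Sytl2, a partner of the vesicle protein Rab27, had 4219 and 76.6, at least 42.2-fold lower. Nkg7, a granule protein of cytotoxic lymphocytes, had 2695 and 109, 24.6-fold lower. Klrd1, the CD94 chain of NK receptors, had 4360.1 and 173, 25.2-fold lower. Klrk1, the activating receptor NKG2D, had 2108 and 145, 14.6-fold lower. Ctla2b, a cysteine protease inhibitor of activated T cells, had 10847 and 439, 24.7-fold lower.

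Receptors, adhesion molecules and transcription factors made up most of the rest. Cxcr6, the receptor of the chemokine CXCL16, had 8235 in CD30high Th1 and 323 in CD30high Th17 cells, 25.5-fold lower. Cd96, a receptor for the poliovirus receptor protein, had 2137 and 104, 20.6-fold lower. Itga4, an integrin alpha chain used in homing, had 1731 and 114, 15.2-fold lower. Etv5, an ETS factor, had 2385 and 79.4, at least 23.9-fold lower. Klf2, a zinc finger factor of resting and recirculating T cells, had 2608 and 143, 18.3-fold lower. Its relative Klf3 had 1782 and 52.1, at least 17.8-fold lower. Ms4a4b, a membrane protein of T cells, had 33805 and 1923, 17.6-fold lower. For Klf2 and Ms4a4b the CD30high Th17 array stood apart from the other 3, since the CD30low arrays held 3619.9 and 3259.7 for Klf2 and 39317 and 28245 for Ms4a4b. The remaining genes were Xdh (xanthine dehydrogenase, at least 22.7-fold lower), Ipcef1 (a cytohesin partner, 26.3-fold lower), Fgl2 (a fibrinogen-like secreted protein, 21.5-fold lower), Itih5 (an inhibitor heavy chain of the matrix, 17.4-fold lower) and Anxa1 (annexin A1, 14.9-fold lower).

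The Th1 program separated the populations in the direction of the culture labels. Of 22 autosomal members of the list, 17 reached 300 on either CD30high array, and 13 of these were lower and 1 higher in Th17 cells. Their median log2 ratio was -2.82, beside 0.04 over all genes compared. The list was written with earlier results of these data known, and its direction is what the labels would give. Tbx21, the T-bet gene, had 2352 in CD30high Th1 and 243 in CD30high Th17 cells, 9.68-fold lower, and the CD30low arrays were close to these at 2189.8 and 281. The IL-18 receptor chains Il18r1 (24026 against 3032) and Il18rap (3894 against 304) were 7.92-fold lower and 12.8-fold lower. Stat4, which carries the IL-12 signal, had 3274 and 1272, 2.57-fold lower. Ifngr1, a chain of the IFN-gamma receptor, had 7896 and 1778, 4.44-fold lower. Ccl5, a chemokine, had 479 and 51.6, at least 4.79-fold lower. Txk, a kinase of Th1 cells, had 508 and 139, 3.67-fold lower.

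Some Th1 genes were apart from this pattern. Hlx, a homeobox factor that supports IFN-gamma expression, was 3.48-fold higher in Th17 cells (126 against 439.6) and below 100 on both CD30low arrays. The IL-12 receptor chains did not pass the fold rule, with 394 and 281 for Il12rb2 and 685 and 657 for Il12rb1. Runx3, a partner of T-bet, had 2465 and 3079.9. Eomes, Ccl3, Ccl4, Havcr2 and Twist1 stayed below 300 on both CD30high arrays. Cxcr3 is X-linked and was left out.

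The Th17 program was mixed. Of 23 autosomal members 18 were measured, 6 were higher and 4 lower in CD30high Th17 cells, and the median log2 ratio was 0.71. In the CD30low pair 4 of 15 measured members were higher and 4 lower, with a median of -0.02. Besides Il17a and Il21, the higher members in the CD30high pair were Irf4, Sox5, Nfkbiz and Rora. Irf4, a transcription factor needed for Th17 cells, had 1794 in Th1 and 7634 in Th17 cells, 4.26-fold higher. Rora, which encodes RORalpha, had 1159 and 2482, 2.14-fold higher, with 963 and 951 on the CD30low arrays. The CD30high Th17 array was thus the brightest for Rora, and the other 3 lay close together. Nfkbiz, the IkappaB-zeta gene and a cofactor at the Il17a gene, had 607 and 1669.8, 2.75-fold higher. Sox5, an HMG box factor, had 3.91 and 619, at least 6.19-fold higher.

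Members of the Th17 list that were lower in Th17 cells included Maf and Il10, which T helper cells of several lineages use. Maf had 5209.7 in CD30high Th1 and 1198 in CD30high Th17 cells, 4.35-fold lower. Il10, an inhibitory cytokine, had 522 and 34.7, at least 5.22-fold lower. The membrane proteins Tmem176a (3454 against 799.6) and Tmem176b (3554 against 1160.3) were 4.32-fold lower and 3.06-fold lower. All 4 of these were also lower in Th17 than in Th1 cells among CD30low cells, with log2 ratios of -2.22 for Maf, -1.93 for Tmem176a and -1.75 for Tmem176b. Il10 had 487 and 67.2 there, at least 4.87-fold lower. Ccr6, the chemokine receptor used to mark Th17 cells, had 172 and 333, just short of 2-fold. Stat3 (1989 and 2777), Batf (1835 and 3266) and Hif1a (26357 and 27166) did not pass either. Il1r1, Ccl20, Ahr, Crtam and Il9 stayed below 300.

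**Figure D2:**
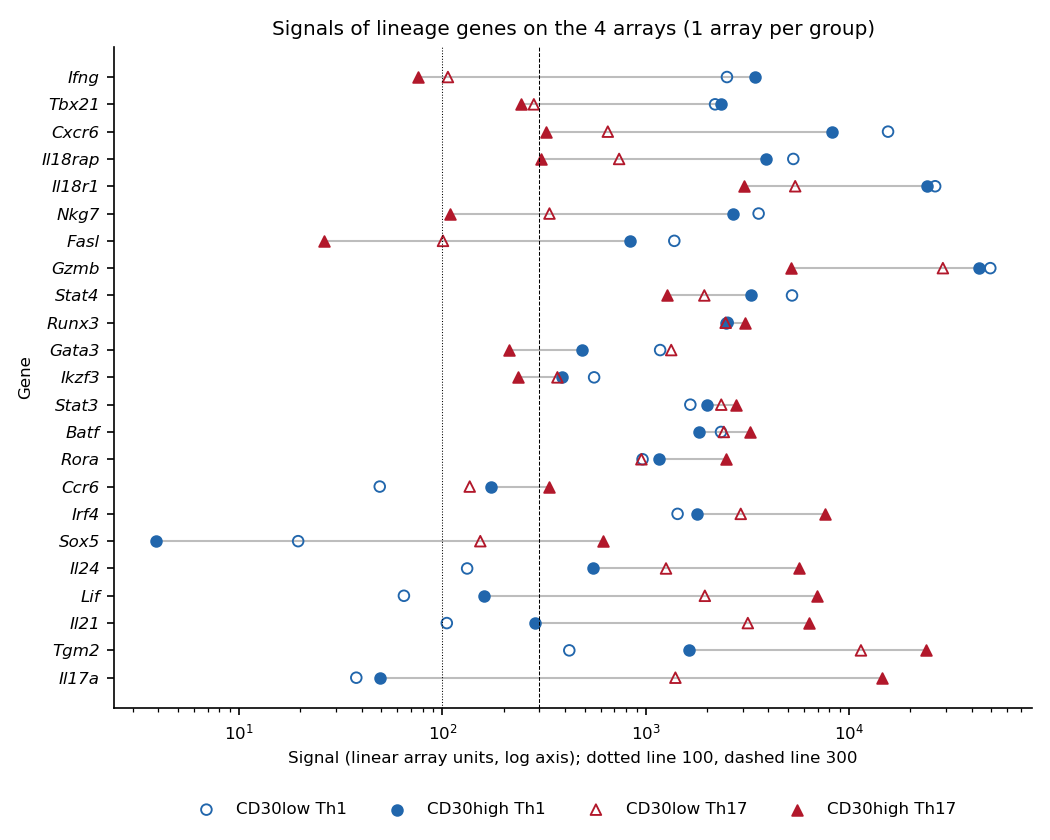
Signals of 23 lineage genes on the 4 arrays, in linear array units on a log axis, with circles for Th1, triangles for Th17, filled symbols for CD30high and open symbols for CD30low, 1 array per group. The grey bar joins the CD30high arrays: it spans 49.4 to 14443 for Il17a and 76 to 3423 for Ifng, while it is short for Runx3, Stat3 and Batf.

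Markers of other helper lineages were few or dim. In the Th2 list 4 of 13 members were measured, Gata3 and Il10 being lower and Il4ra higher, while Il4, Il5 and Il13 stayed below 300. Gata3, the Th2 master factor, had 484 in CD30high Th1 and 211 in CD30high Th17 cells, against 1176 and 1333 in the CD30low cells. Among 11 measured regulatory T cell genes 1 was higher and 3 lower. Il2ra, the alpha chain of the IL-2 receptor, was the higher one, with 5956 and 15524. Entpd1, the ectonucleotidase CD39, had 1024 and 154, 6.63-fold lower, and Nrp1 (neuropilin-1) 1101 and 203, 5.42-fold lower. Foxp3 is X-linked and was left out.

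Follicular helper genes leaned toward Th17 cells in the CD30high pair, with 4 of 8 measured members higher, 1 lower and a median of 1.02. In the CD30low pair 3 of 8 were higher and none lower, with a median of 0.19. Btla, an inhibitory receptor, had 1578 in CD30high Th1 and 5419 in CD30high Th17 cells, 3.43-fold higher. Cd200, a ligand for a myeloid inhibitory receptor, had 222 and 1099, 4.95-fold higher. Slamf6, a homophilic receptor, went the other way with 711 and 148, 4.8-fold lower. Bcl6, the follicular helper master factor, had 394 and 480.4 and was not called, and Cxcr5 stayed below 300.

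Naive and memory genes were lower more often than higher in CD30high Th17 cells, 8 against 3 of 17 measured, with a median of -0.25. Beside Klf2 and Klf3, Cd27, a TNF receptor of memory cells, had 1067 in CD30high Th1 and 217 in CD30high Th17 cells, 4.91-fold lower. Id3, an inhibitor of E proteins, had 987 and 227, 4.35-fold lower. In the other direction Ccr7, the lymph node homing receptor, had 1628 and 3554, 2.18-fold higher, and Myb, a factor of progenitor and memory cells, 3696 and 8923, 2.41-fold higher. Only 3 members were lower in Th17 cells in the CD30low pair. Among 13 measured effector differentiation factors, 6 were lower and 1 higher. Hopx, a homeodomain protein of effector Th1 cells, had 1886 and 288, 6.54-fold lower. Zbtb7b, the CD4 lineage factor ThPOK, had 458 and 157, 2.91-fold lower. Zeb2, a transcriptional repressor active in terminal effector cells, was the higher one with 94.6 and 511, at least 5.11-fold higher. Its signal lay below 100 on both CD30low arrays.

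Cytokine genes differed in both directions. Of 15 measured cytokines, 7 were higher and 3 lower in CD30high Th17 cells, with a median of 0.36. Lta, the lymphotoxin alpha gene, was among the higher ones with 1832 in CD30high Th1 and 8423 in CD30high Th17 cells, 4.6-fold higher. Tnf and Osm passed as well, and Csf1 joined Ifng and Il10 among the lower ones. Il2, Il3, Csf2 and Il6 were among 12 cytokines that stayed below 300. Of 17 chemokines only 2 were measured. Ccl22, a ligand of CCR4, had 27.3 and 388, at least 3.88-fold higher, and Ccl5 was lower as described. Among 9 measured chemokine and homing receptors, Cxcr6 was lower and Ccr7 and Ccr1 higher, Ccr1 with 269 and 1082.

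The receptor chains for cytokines differed in both directions, 5 higher and 8 lower of 25 measured, with a median of -0.36. Il1r2, the decoy receptor for IL-1, was 9.39-fold higher in CD30high Th17 cells (1059.8 against 9955). The chains of the IFN-gamma receptor moved apart, since Ifngr1 was lower and Ifngr2 higher (94.7 against 636, at least 6.36-fold higher). Il4ra had 1250.2 and 2909, 2.33-fold higher. Il7r, the receptor for the survival cytokine IL-7, was among the lower ones, as were both receptors of TGF-beta. Tgfbr2 had 5930.4 and 2638, 2.25-fold lower. In the TGF-beta pathway as a whole 3 of 18 measured members were higher and 2 lower, with a median of 0.05. The signal transducers Smad3 (1099 against 2790.1) and Smad5 (313 against 924) were among the higher ones.

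Of 20 measured STAT, SOCS and PIM genes, which carry or dampen cytokine signals, 5 were higher and Stat4 alone was lower, with a median of 0.36. Socs1, an inhibitor of JAK kinases, had 222 in CD30high Th1 and 819 in CD30high Th17 cells, 3.69-fold higher. Cish, an inhibitor induced by STAT5, had 2151 and 5749, 2.67-fold higher. Bcl3, an IkappaB family protein, had 975 and 2208, 2.27-fold higher. Socs3 and Jak2 passed as well. In the CD30low pair the list also had 5 higher and 1 lower, with a median of 0.35.

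The NF-kappaB pathway had 8 of 19 measured members higher and none lower in CD30high Th17 cells, with a median of 0.71. Over all genes compared the share of higher genes was 4.91%. Nfkbia, the IkappaB-alpha inhibitor that NF-kappaB itself induces, had 7830.4 in CD30high Th1 and 26212 in CD30high Th17 cells, 3.35-fold higher. Nfkbie, the IkappaB-epsilon inhibitor, had 684 and 2204, 3.22-fold higher. Relb, a subunit of the alternative pathway, had 144 and 519, 3.6-fold higher. Birc3, an inhibitor of apoptosis that ligates ubiquitin, had 2708 and 8210.2, 3.03-fold higher. In the CD30low pair 5 members were higher and 1 lower. Genes of TNF family ligands were split, 4 higher and 3 lower of 9 measured. Tnfsf8, the gene of the CD30 ligand, had 515 and 1948, 3.78-fold higher. Tnfsf14 (LIGHT) had 99.5 and 546, at least 5.46-fold higher. Fasl, the death ligand, had 838 and 26.1, at least 8.38-fold lower. Among 9 measured TNF receptors, Tnfrsf25 was higher and Cd27 lower.

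AP-1, IRF and Maf factors were divided evenly, 5 higher and 5 lower of 18 measured. Their median of 0.29 turned negative when a gene was taken as the geometric mean of its probe sets, so the list has no settled direction. Batf3, an AP-1 factor known from dendritic cells, had 2044 in CD30high Th1 and 10567 in CD30high Th17 cells, 5.17-fold higher. Atf3, a stress-induced factor, had 174 and 1037, 5.96-fold higher. Junb had 607 and 2486, 4.1-fold higher. Irf4 was higher and Irf8, Irf1, Jun, Bach1 and Maf lower.

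The listed genes that interferons induce were lower or not called in CD30high Th17 cells. Genes outside these lists are not covered by that statement. Among 11 measured interferon-induced genes 4 were lower and none higher, with a median of -0.49, and another 15 stayed below 300. Ifi27l2a had 9281 in CD30high Th1 and 2582 in CD30high Th17 cells, 3.59-fold lower. Isg20, an exonuclease, had 2007 and 569, 3.53-fold lower. Zbp1, a sensor of nucleic acids, had 1228 and 475, and Ifit2, which binds foreign RNA, 799 and 262. In the CD30low pair none of 13 was called, and the median was 0.12. The interferon-induced GTPases, which act against intracellular pathogens, had a median of -0.79 over 10 members, 9 of them below equality. Only Iigp1 passed, with 1604 and 136, 11.8-fold lower. Igtp (20812 against 11692) and Irgm1 (2894 against 1531) did not.

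Class I antigen presentation leaned lower in CD30high Th17 cells. Of 16 measured members 14 had a ratio below 1, 3 passed the fold rule, and the median was -0.49. H2-K1, a class I heavy chain, had 32323 in CD30high Th1 and 15149 in CD30high Th17 cells, 2.13-fold lower, but fell short of the rule with quantile normalization, at a log2 ratio of -0.90. Nlrc5, the transactivator of class I genes, had 4011 and 1940.3, 2.07-fold lower. Tap1, a peptide transporter, had 3452 and 1721, 2.01-fold lower. B2m, the light chain, had 44350.1 and 27306 and did not pass. None of the 16 passed in the CD30low pair, where the median was -0.28.

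Cytotoxic granule genes were lower in CD30high Th17 cells in 7 of 13 measured cases and higher in none, with a median of -1.70. Gzmb, the granzyme B gene, had 43328 in CD30high Th1 and 5155 in CD30high Th17 cells, 8.4-fold lower. In CD30low cells it had 49398 and 28882, so the CD30high Th17 array was the dimmest by a wide margin. Gzma had 8346 and 874, 9.55-fold lower. Ctsw, a cathepsin of cytotoxic cells, had 3299 and 468, 7.05-fold lower. Fasl and Nkg7 belong to the same list. Perforin (Prf1) stayed below 300. Checkpoint and costimulatory receptors were split, 4 higher and 3 lower of 16 measured. Cd96 and Slamf6 were lower and Btla and Cd200 higher.

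The T cell identity of the sorted cells was checked with 12 pan T cell markers, all of which were measured. None was called in either direction, and their median was -0.46. Cd3d had 25598 in CD30high Th1 and 14031 in CD30high Th17 cells, Cd3g 15211 and 8404, and Cd247, the zeta chain, 4891 and 2591. Cd2, an adhesion receptor, had 8769 and 15776. The summed signal of the list was 98971 and 80088. In a bulk sample a lower signal may come from fewer cells that express a gene or from less RNA per cell, and these cannot be told apart.

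Genes of T cell receptor signalling were below equality in 20 of 27 cases, with 5 lower, 1 higher and a median of -0.41. Trat1, an adaptor of the receptor, had 5881 in CD30high Th1 and 1245 in CD30high Th17 cells, 4.72-fold lower. Ubash3a, a phosphatase that dampens the signal, had 764 and 173, 4.42-fold lower. Fyn, a kinase, had 2792 and 983, 2.84-fold lower. Activation genes leaned the other way, 4 higher and 1 lower of 18 measured, with a median of 0.49. Tfrc, the transferrin receptor, had 6308 and 14758, 2.34-fold higher. In the CD30low pair 11 of 22 measured activation genes were higher and 1 lower, with a median of 0.95. The shares over all genes of that pair were 3.46% higher and 5.83% lower. Egr2, Egr3, Nr4a2, Nr4a3, Fos and Fosb stayed below 300 in the CD30high pair.

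Adhesion and membrane protein families held more lower than higher genes in CD30high Th17 cells. Of 17 measured integrins and adhesion molecules 5 were lower and 1 higher, with a median of -0.50. Itgb7, the beta chain of gut homing integrins, had 5483 in CD30high Th1 and 1602 in CD30high Th17 cells, 3.42-fold lower. Itgb3 had 438 and 39.5, at least 4.38-fold lower. Itga3, which binds laminin, was the higher one with 196 and 889, 4.54-fold higher. All 5 measured MS4A genes, which encode tetraspanning membrane proteins, were below equality and 3 passed, with a median of -2.49. Ms4a4c had 1289 and 113, 11.4-fold lower, although in the CD30low pair Th17 was the brighter at 1309 and 2149. Ms4a6d had 1578 and 280.3, 5.63-fold lower. All 8 GIMAP genes, GTPases of lymphocyte survival, were below equality and 5 passed, with a median of -1.08. Gimap4 had 33641 and 11140.1, 3.02-fold lower, and Gimap6 6986 and 2662, 2.62-fold lower. In the CD30low pair 1 of the 8 passed, and the median was -0.77.

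Enzymes that build selectin ligands and other glycans included 2 higher and 5 lower of 15 measured. Fut8, which adds core fucose, had 3254 in CD30high Th1 and 455 in CD30high Th17 cells, 7.16-fold lower. Gcnt1, which opens core branches of selectin ligands, had 583 and 114, 5.11-fold lower. Galnt3, which starts mucin-type chains, had 637 and 128, 4.98-fold lower. Gcnt2 was higher with 163 and 699, 4.28-fold higher. Among purinergic and lipid mediator genes 2 of 13 were higher and 4 lower. Gpr65, a proton-sensing receptor, had 939 and 4025, 4.28-fold higher, and the prostaglandin receptor Ptger3 had 411 and 33.1, at least 4.11-fold lower. Of 12 cyclic AMP genes 4 were lower and 1 higher. Pde2a and Pde3b, which break down cyclic nucleotides, were 3.3-fold lower and 2.77-fold lower, and Crem, a factor responding to cyclic AMP, was 3.53-fold higher (2640.3 against 9320.3). Of 6 RGS genes, which switch off G proteins, Rgs1 was higher (4608 against 10925) and Rgs10 lower (2868 against 1354).

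Among metabolic genes, glycolysis and hypoxia genes had a ratio above 1 in 24 of 31 cases, with a median of 0.42, but only 3 passed. Hk2, a hexokinase, had 2923 in CD30high Th1 and 7922 in CD30high Th17 cells, 2.71-fold higher, and Pfkl, a phosphofructokinase, 456 and 1216, 2.67-fold higher. The same list had a median of 0.43 in the CD30low pair. The respiratory chain stayed near equality, with a median of 0.05 over 43 genes and only Ndufa4 called (3019 against 6748). Of 17 TCA cycle genes 1 was higher, Pcx (pyruvate carboxylase), with 430.1 and 877. Cholesterol synthesis and fatty acid metabolism each had 1 higher and 1 lower gene, over 16 and 17 measured. The shares over all genes compared were 4.91% higher and 6.81% lower, and the TCA cycle, cholesterol and fatty acid counts lay near them. Plin2, which coats lipid droplets, had 2527 and 6043, 2.39-fold higher. Fabp5, a fatty acid binding protein, had 13598 and 26739, just short of 2-fold. Both measured metallothioneins were lower, Mt2 with 13734 and 3292, 4.17-fold lower, while the zinc importer Slc39a10 was higher with 688 and 3765, 5.48-fold higher.

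Lists of protein production and turnover are given by their counts, beside 4.91% higher and 6.81% lower over all genes compared. Proteasome genes were above equality in 28 of 31 cases, with a median of 0.37, and only Psmb7 passed (716 against 1929.7). Ribosome biogenesis genes were above equality in 27 of 33, with a median of 0.30, and only Rrp12 passed (437 against 1293). Ribosomal protein genes were below equality in 29 of 33, with a median of -0.32 that changed sign under quantile normalization, so their direction depends on the scaling. Rps27 was the only one called, with 1067 and 281. None of 23 genes of the unfolded protein response was called, and 1 of 30 ATF4 targets and tRNA synthetases was, Vldlr (939.9 against 2329). No gene of 10 for amino acid and nucleoside transport passed. Cochaperones had 2 of 14 higher, Hsph1 and Dnajb4, and a median of 0.44. Of 17 NRF2 and glutathione genes 2 were lower, Me1 (737 against 236) and Sqstm1 (3015 against 1429.5).

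Among cell cycle genes, none of 37 measured genes of mitosis and the spindle was called, with a median of -0.16, and 2 of 36 replication genes were higher, with a median of 0.12. Over all genes compared 4.91% were higher and 6.81% lower, so the replication count lay near the background. Rfc3, a clamp loader subunit, had 1498 in CD30high Th1 and 6644 in CD30high Th17 cells, 4.44-fold higher, and Fen1, a flap nuclease, 2268 and 4675, 2.06-fold higher. The CD30low pair had medians of 0.63 and 0.64 for the same lists, with 4 and 5 genes higher. The mitotic kinesin Kif11, for example, had 2118 and 1467 among CD30high cells and 1573 and 2607 among CD30low cells. Whether the lineage difference in these lists differs between the sorts was not tested.

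On the lists of growth arrest and death genes, every called member was lower in CD30high Th17 cells. Of 17 CDK inhibitors and p53 targets 4 were lower and none higher, beside 6.81% lower and 4.91% higher over all genes compared. Sesn1, a stress-induced inhibitor of mTORC1, had 2256 in CD30high Th1 and 291 in CD30high Th17 cells, 7.74-fold lower. Btg2, an antiproliferative gene, had 4088 and 1099.6, 3.72-fold lower. Of 13 measured members of the BCL2 family list 4 were lower and none higher, the 4 being pro-apoptotic BH3-only genes. Bcl2l14, a BCL2 family gene outside the list, was higher, with 226 in CD30high Th1 and 1085 in CD30high Th17 cells. Bmf had 559.7 and 32.7, at least 5.6-fold lower. Bbc3 (PUMA) had 768 and 153, 5.02-fold lower. Bcl2l11 (BIM) had 3189 and 1138, 2.8-fold lower, and Pmaip1 (NOXA) 3872 and 1702, 2.27-fold lower. The CD30low pair also had 4 lower BCL2 family genes, where Bmf had 576 and 54.2, at least 5.76-fold lower, and Bbc3 a log2 ratio of -2.91. In the MYC family list 3 of 12 were higher. Myc itself had 3323 and 6029.7 and did not pass. Of 11 measured circadian and nuclear receptor genes Arntl and Rora were higher.

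Matrix and protease genes were measured in 11 of 33 cases, with 7 higher and 3 lower in CD30high Th17 cells and a median of 1.69. The other 22 stayed below 300 on both CD30high arrays. A member counted as measured when either array reached 300, so genes such as Lum entered through the Th17 array alone. Besides Lum, Tgm2 and Procr, Dcn (decorin, a proteoglycan related to lumican) had 12 in CD30high Th1 and 967 in CD30high Th17 cells, at least 9.67-fold higher. The collagens, Sparc, Fn1 and Postn stayed below 300 on both arrays. In the cytoskeleton list 3 of 25 were higher, among them Lmna (lamin A/C, 11.4 against 573) and the unconventional myosin Myo10 (1071 against 3139). The other Lmna probe sets stayed below 100 on both CD30high arrays, for example at 71.5 in Th1 and 57.5 in Th17 cells. Tubb2b, a tubulin, was the lower one with 448 and 216.

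**Figure D3:**
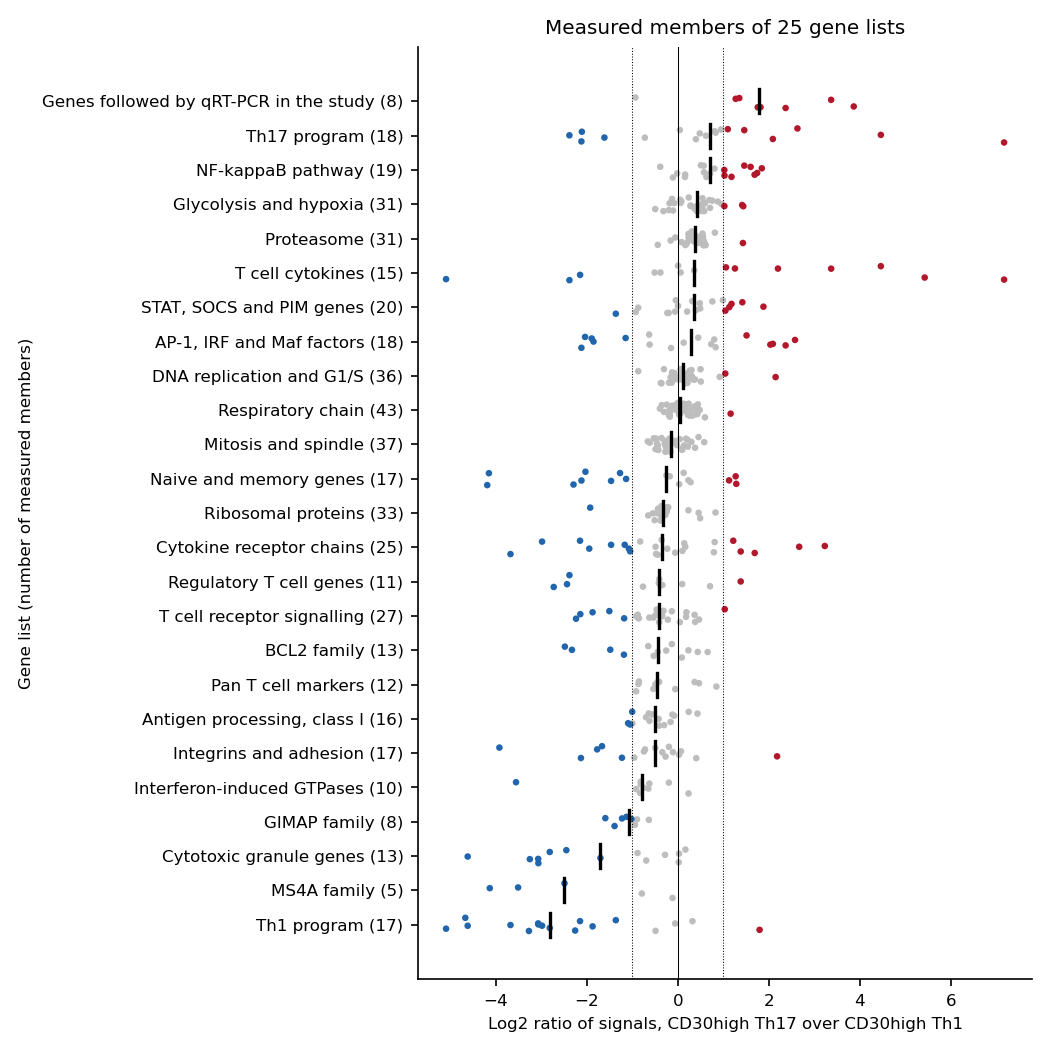
Log2 ratios of CD30high Th17 over CD30high Th1 for the measured members of 25 gene lists, with 1 point per gene, the number of members in brackets, a bar at the list median and dotted lines at 2-fold. Red points passed the fold rule upward and blue points downward; the medians run from -2.82 for the Th1 program to 1.79 for the genes followed by qRT-PCR, beside 0.04 over all genes compared.

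The 10 genes that the study followed by qRT-PCR had been picked for their CD30 difference on these same arrays, so their lineage difference is a description. Of 8 measured, 7 were higher in CD30high Th17 cells. Msc, the basic helix-loop-helix factor musculin, had 402 in CD30high Th1 and 1358 in CD30high Th17 cells, 3.38-fold higher. Serpinf1, a secreted serpin, had 2289.9 and 5839.7, 2.55-fold higher. Rapgef5, an exchange factor for Rap GTPases, had 564 and 1989, 3.52-fold higher. Tgm2, Il24, Batf3 and Myb were the others. Myo6, an unconventional myosin, had 520.4 and 273 and was not called, yet in CD30low cells it had 1782 and 10494. Calhm6 (280.0 against 13.9) and Rtp4 (127 against 7.69) stayed below 300. The gene of CD30 itself, Tnfrsf8, was dim on this array type, with 51.1 and 132 in the CD30high cells and 13.3 and 34.9 in the CD30low cells. Only 1 of these signals reached 100, so no fold is given.

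Markers of other cell types were examined because cultures held splenocytes, and most lists are given with their summed signal on the arrays. B cell markers summed to between 3134 and 5885. Of 11 only Ighm was measured (2444 against 3224), while Cd79a, Cd79b, Ms4a1 and Pax5 stayed below 300 on both CD30high arrays. Myeloid markers summed to between 5332 and 6869, most of it from Ctss, a cathepsin (5362 against 4219). Fcgr3 was the only other one measured of 17 and was lower (443 against 69.1), and Lyz2, Csf1r and Cd14 stayed below 300. Of 10 autosomal erythroid and platelet markers, Itga2b was the only one measured (329.7 against 169.9), and none of 17 genes restricted to other tissues was.

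Neutrophil markers summed to 1309.8 in CD30high Th1 and 2854 in CD30high Th17 cells, and to 919.8 and 9946 in the CD30low cells. Of 13 members 3 were measured in the CD30high pair. S100a8 and its partner S100a9 (18.1 against 527) were higher in Th17 and Cxcr2 lower (905 against 235), while Ngp, Camp, Elane and Mpo stayed below 300. In the CD30low pair 7 members were measured, 6 of them higher and 1 lower in Th17 cells, with a median of 2.20. The shares over all genes of that pair were 3.46% higher and 5.83% lower. Stromal markers summed to 13738 and 17416 (CD30low: 13429.5 and 13922), with most of the sum from Thy1, which T cells also express. Lum and Dcn were higher, while Col1a1, Col1a2, Col3a1 and Pdgfra stayed below 300. NK and CD8 markers summed to 8607 and 1285 (CD30low: 10836 and 1618). Klrd1, Klrk1, Klrc1 and Klrb1f were lower, while Cd8a and Ncr1 stayed below 300. Dendritic cell markers summed to 3726 and 12189.7 (CD30low: 1787 and 2809.6), mostly from Batf3, and Itgax, Flt3 and Zbtb46 stayed below 300. Mcpt8, a basophil protease, had 8.41 and 470.2, with the other 10 mast cell and basophil markers below 300. Of 7 class II genes 2 were higher and 2 lower, H2-Aa with 198 and 544. Whether other cells contributed to S100a8, Lum, Dcn or Mcpt8 was not tested.

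Genes known to vary between mouse strains were looked at because the line behind each culture was not given. Of 6 measured, Ifi202b was lower in CD30high Th17 cells (7981 against 1361) and H2-Ea higher (198 against 406). Apobec3 (189.5 against 352) and Wdfy1 (1466 against 1057) did not pass. The part of the strain in any lineage difference was not tested.

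The calls were then set beside those of the CD30low pair, which shares no array with the CD30high pair. Of the 379 genes higher in CD30high Th17 cells, 124 were also called higher among CD30low cells, which is 32.7% of the CD30high calls and 47.1% of the CD30low calls. Of the 525 lower genes, 273 were called lower in both pairs, 52% of the CD30high and 61.6% of the CD30low calls. The ratio had the same sign in the CD30low pair for 323 (85.2%) of the higher and 499 (95%) of the lower genes. For the higher genes the median log2 ratio was 1.40 in CD30high and 0.68 in CD30low cells, and for the lower genes -1.53 and -1.05. Because the genes were picked for their CD30high ratio, a smaller ratio in the other pair is no evidence of a difference between the sorts. Across 7362 genes compared in both pairs the log2 ratios had a Pearson r of 0.748, a description across genes that are not independent of each other.

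**Figure D4:**
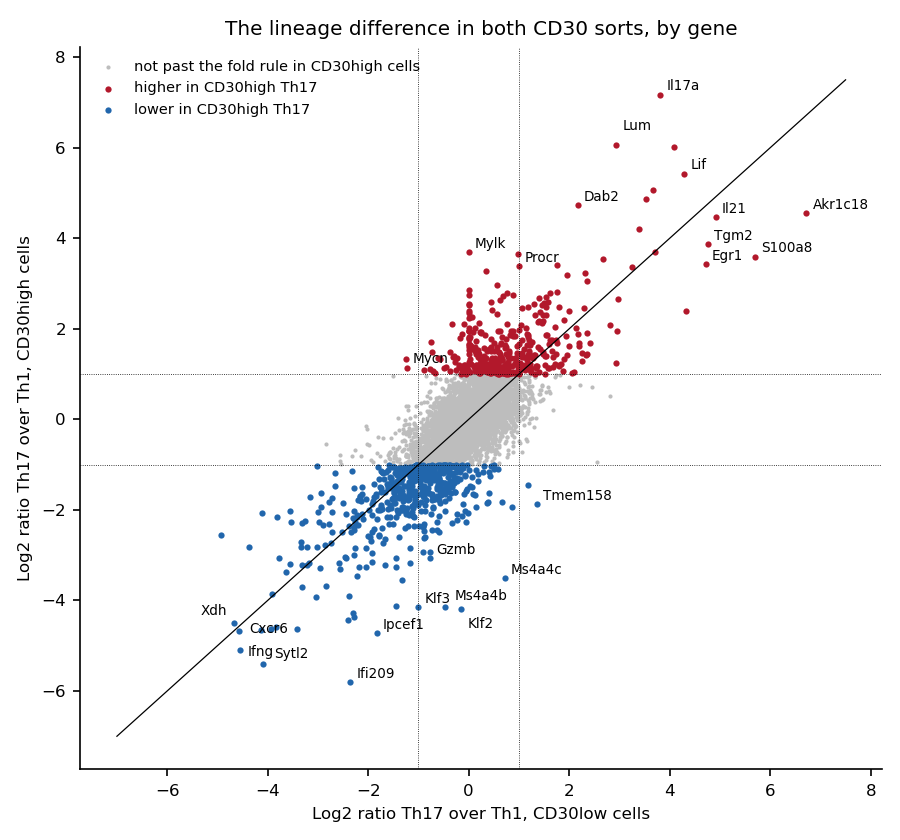
Log2 ratio of Th17 over Th1 among CD30low cells on the x axis and among CD30high cells on the y axis, with 1 point per autosomal gene compared in the CD30high pair and colours for genes called there. The line marks equal ratios and dotted lines 2-fold; 397 called genes passed in the same direction in both pairs, while Klf2, Ms4a4b and Mylk lie near 0 on the x axis.

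In some of the genes with a wide gap between the pairs 1 array stood apart, and the genes outside the lists were picked after their values were seen. Klf2, Ms4a4b, Ms4a4c and Gzmb had far lower signals on the CD30high Th17 array than on the other 3, as given above. Mylk, Lmna, Zeb2 and Mcpt8 were bright on it alone and below 100 on both CD30low arrays, by the probe set used for each gene. Ankrd33b, an ankyrin repeat protein, had 103 and 739 in the CD30high pair and 52.7 and 84.5 in the CD30low pair. Zc3h12c, a zinc finger protein of the Regnase family, had 101 and 682, then 25.4 and 49. Myh11, smooth muscle myosin, had 33.3 and 587, then 32 and 52.9. Other genes with a wide gap, among them Il17a, Lum, Ifi209, Klf3, Ipcef1 and Itih5, passed the fold rule in the same direction in both pairs. By contrast Il21, Akr1c18, Upp1, Tgm2, Cxcr6, Xdh and Klrk1 had log2 ratios in the CD30low pair of 4.92, 6.72, 3.71, 4.76, -4.58, -4.67 and -3.92. These genes passed the fold rule in both sorts.

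Mir155hg, the transcript from which the microRNA miR-155 is processed, was likewise picked after its values were seen. It had 99.8 in CD30high Th1 and 777 in CD30high Th17 cells, at least 7.77-fold higher, and 54.1 and 148 in the CD30low cells. It was brightest in CD30high Th17 cells. The array reports the host transcript and not the mature microRNA. The mature sequences, from RefSeq on GRCm38.p6, lie on chromosome 16 plus strand at chr16:84714143-84714165 for the 5p arm and chr16:84714182-84714202 for the 3p arm, and are given with the seed, bases 2 to 8, in capitals.
miR-155-5p: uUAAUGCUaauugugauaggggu
miR-155-3p: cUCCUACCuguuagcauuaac

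Agreement between probe sets could be judged only where a gene had several of them on the arrays. It leaves out any error of culture, sort, labelling or hybridization, which all probe sets of an array share. Over 3015 genes with at least 2 probe sets at 300 or more, the log2 ratios of Th17 over Th1 scattered by an SD of 0.36 for each probe set. Of the 379 higher genes, 123 had such a second probe set, and it pointed the same way in 118 and was past 2-fold in 68. Of the 525 lower genes 168 had one, the same way in 164 and past 2-fold in 132. For Tgm2 the next brightest probe set gave 1099 and 18841, a log2 ratio of 4.10 beside 3.87. For Il21 it gave 57.2 and 2039, and as the Th1 signal lay below 100 its log2 ratio of 4.35 is a lower bound, beside 4.46. For Ifi209 it gave 426 and 34.0, the same direction, and the Th17 signal below 100 leaves the size of that ratio unmeasured. The second probe set of Lif was below 300 on every array, with 37.2 and 139 in the CD30high pair. Il17a, Lum, Ifng and Tbx21 each have 1 probe set here. Second probe sets pointed the other way for Appbp2, Fyttd1, Hspa14, Plcxd1 and Spred2 among the higher genes and for Map3k12, N4bp2l1, Pvt1 and Tspan32 among the lower ones, so the direction of these genes depends on the probe set.

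**Figure D5:**
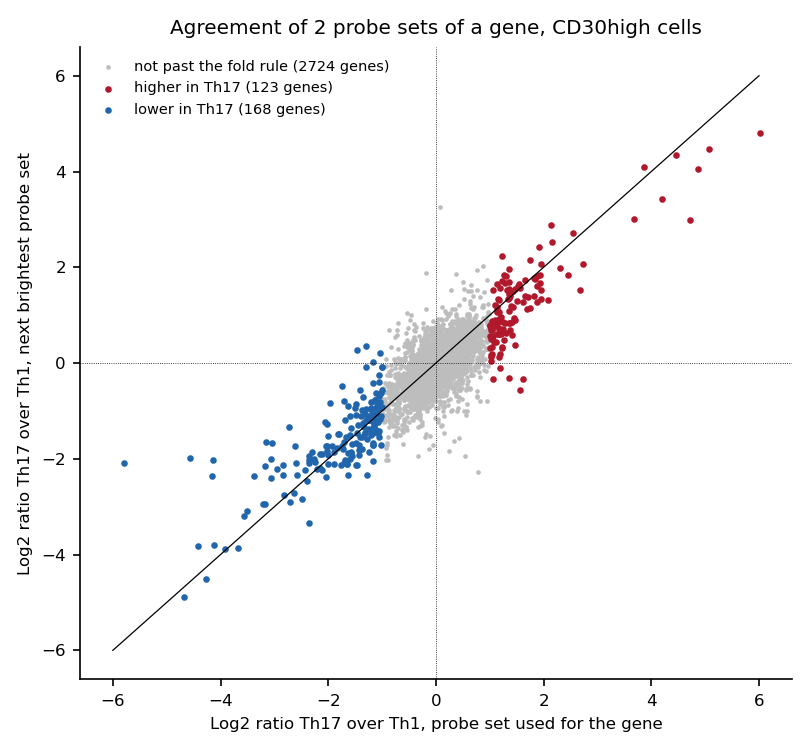
Log2 ratio of CD30high Th17 over CD30high Th1 for the probe set used for a gene (x axis) and the gene's next brightest probe set (y axis), with 1 point per gene that has 2 probe sets at 300 or more and the line of equality. Of 123 higher genes 118 lie above 0 on the y axis, and of 168 lower genes 164 lie below it.

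Called genes were in places neighbours in the genome. In the order of genes compared along each chromosome, 10 runs of at least 3 adjacent genes were all lower and 2 runs all higher. On chromosome 1 Ifi209, Mndal and Ifi202b of the HIN-200 cluster formed such a run. On chromosome 6 Gimap9, Gimap4, Gimap6 and Gimap7 formed a second one and Klrd1, Klrk1 and Klrc1 of the NK receptor complex another. The longest run held 5 genes on chromosome 15, Ank, Otulin, Otulinl, Trio and Dap. The runs of higher genes were Prdx2, Junb and Hook2 on chromosome 8 and Hmgn1, Get1 and Ripk4 on chromosome 16. Members of a gene family can share probe sequence, so neighbouring paralogs are not independent measurements.

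Motifs were counted in the RefSeq promoters on GRCm38.p6, from 250 bases before to 50 after the first listed start of each gene, on both strands. A promoter was matched for 303 of the higher and 422 of the lower genes, for 6349 of the genes compared and for 27025 genes in all. The nuclear receptor site AGGTCA was in 10.9% of promoters of higher genes, 15.9% of lower genes, 11.9% of genes compared and 16% of all promoters. The AP-1 site TGAGTCA was in 4.62% of higher, 7.11% of lower and 3.21% of compared genes, and in 5.17% of all promoters. The STAT site TTCNNNGAA was in 6.60%, 7.82%, 6.82% and 8.47%, in the same order. The T-box site AGGTGTGA was in 0.990%, 1.42%, 0.819% and 1.27%. The decameric NF-kappaB site was in 0.660% of higher and 0.474% of lower genes, each 2 promoters, beside 0.173% of compared genes and 0.144% of all. These shares are descriptions with no test, and the absence of a match says nothing about binding.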

How the data were processed

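Labelled RNA of each population was hybridized to 1 Affymetrix Mouse Genome 430 2.0 array. Each value deposited by the authors was a linear intensity of a probe set, made with GCOS according to the methods and with Affymetrix Expression Console according to the submitters' processing notes. Version, summary algorithm and scaling target are not given in the sources used here. With 2% of probe sets trimmed at either end the arrays averaged 496.6 to 497.0, so they had been scaled to a common target and a shift shared by most genes could not be seen. Precision is limited by the number of arrays, and no detection calls were applied.

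Of 45037 probe sets, 34945 had a single gene symbol in the platform annotation, and 34741 of these were matched through gene identifiers to RefSeq on GRCm38.p6, which gave current symbols and chromosomes. For each gene the probe set with the highest mean over the 4 arrays was used. X and Y genes (626) and genes with no position (163) were left out. Signals below 100 were set to 100, and the fold rule required 2-fold and 300 in the brighter array, the signal limit of a figure legend of the study. The ratio step was tested on simulated data. List members were called measured at 300 or more on either array.

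The comparison and 68 lists with 1498 entries, of which 1364 were named here, were chosen with earlier results of these data known. Genes were named by rule as the 20 largest ratios per direction, up to 4 members of each list by size of ratio, every called member of the Th1, Th17 and other cell type lists, Tnfrsf8 and the genes followed by qRT-PCR. Other genes, such as Batf, Stat3, Hif1a, Runx3 and the IL-12 receptor chains, were named after their values were seen. Groups came from the sample titles. Alternatives covered scaling, fold and signal limits, floor, probe set choice and chromosome filter. Python 3.11.15, numpy 2.4.6, pandas 2.3.3 and matplotlib 3.10.9 were used.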

Additional observations from a re-analysis of the deposited data

Results flagged for a closer look

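In 4 genes the lineage difference passed the fold rule in opposite directions in the CD30 sorts, and with 1 array per group the difference between the sorts was not tested. Mycn, a relative of Myc, had a log2 ratio of Th17 over Th1 of 1.14 among CD30high cells (674 against 1490.1) and -1.23 among CD30low cells (335 against 143). Sgip1, an endocytic protein, had 1.33 (302 against 756) and -1.25 (318 against 134). Tmem158, a membrane protein, had -1.87 (505 against 138) and 1.35 (581 against 1484). Trgv4, a variable segment of the T cell receptor gamma locus, had -1.45 (450.0 against 165) and 1.17 (467 against 1051). In all 4 genes the Th17 arrays differed more from each other than the Th1 arrays did.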

How the results depend on the processing

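With a fold limit of 1.5 instead of 2, 1042 genes were higher and 1139 lower in CD30high Th17 cells, and 1009 of the calls passed in the same direction among CD30low cells. With a limit of 3 these counts were 144, 247 and 157. Under the other settings, which were quantile normalization, median centring, signal limits of 200 and 500, floors of 50 and 200, the geometric mean of probe sets, the brightest probe set of the CD30high arrays and genes without a chromosome kept, the higher genes ranged from 307 to 448, the lower from 403 to 655 and the shared calls from 311 to 454. The share of calls that were higher was 41.9%, 46.4% with quantile normalization and 37.2% with median centring. Of 181 named genes past the rule, 57 fell short of it with a fold limit of 3, 17 with the geometric mean of probe sets, 13 with a signal limit of 500, 6 with median centring, 5 with quantile normalization and 1, Ccl22, with a floor of 200, and no named gene past the rule changed direction. Those lost by scaling included H2-K1 and Tubb2b (quantile), Pcx and H2-Ea (centring) and Fen1 and Hsph1 (both). Those lost with the geometric mean included Rora, Nfkbiz, Il4ra, Smad3, Pfkl, Tfrc, Zeb2, Zbtb7b and Mycn. The median changed sign for the Th2, ribosomal and ATF4 lists with quantile normalization, for the respiratory chain and metallothionein lists with median centring, for the Th2 and TGF-beta lists with a signal limit of 200, for the Th2, strain-variable and amino acid transport lists with one of 500, and for the AP-1, aryl hydrocarbon receptor, strain-variable, TGF-beta, metallothionein and amino acid transport lists with the geometric mean. The cause of these changes was not tested. No paired analysis was possible because each group is a single array, and for the same reason no array could be left out. Dim signals limit 40 higher and 65 lower genes to a lower bound of the fold.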

Other observations

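Probe sets with no single gene name were not part of the comparison of genes. Of 10092 such probe sets, 1587 reached 300 on either CD30high array, and by the same rule 78 (4.91%) were higher and 186 (11.7%) lower in Th17 cells. For named autosomal genes the shares were 4.91% and 6.81%. By chromosome, higher calls outnumbered lower ones on 8 (21 and 19 of 424 compared), 16 (26 and 15 of 265) and 18 (13 and 6 of 201) and on no other autosome, and on 13 there were 10 higher and 36 lower of 308. These chromosomes were picked after their values were seen, and the difference was not tested.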
